A study of Homo sapiens with 9 samples.

Results

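The genes described here are FOS, FOSB, FOSL1 and FOSL2 (the FOS family), JUN, JUNB and JUND (the JUN family), and EGR1, IER3 and DUSP1, genes of the immediate early class. They were chosen by symbol, and each of the 10 matched 1 gene of the 60683 in the count table. The counts came from Hep3B, an established human hepatocellular carcinoma line, cultured for 24 hours as 3 biological replicates in each of 3 groups: DMSO vehicle at 20% O2, DMSO vehicle at 1% O2, and the HIF inhibitor 32-134D at 1% O2. The vehicle comparison addressed the response to hypoxia, and 32-134D against vehicle at 1% O2 addressed what the inhibitor changed in hypoxic cells. Cells given 32-134D at 20% O2 were not analysed here, all cultures were of 1 cell line, and the sample labels give no dose.

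AP-1 is a dimeric transcription factor made of a JUN protein paired with another JUN protein, a FOS protein or a relative from the ATF or MAF families, and it binds DNA through a basic region next to a leucine zipper. JUN and FOS proteins differ in how strongly they activate transcription, so the mixture of subunits in a cell matters as well as the total. Immediate early genes are transcribed within minutes of a stimulus without new protein synthesis, mostly through the MAP kinases, serum response factor with its ETS partners, and CREB or ATF proteins at promoter elements. Many of their transcripts are short-lived. In liver cells they are known from the response to growth factors, partial hepatectomy and stress.

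Library totals ran from 6013980 counts (replicate 2 of vehicle at 20% O2) to 40549699. Levels are given as CPM, the counts of a gene per 1000000 counts of the library, with the library size corrected by TMM. Differences are log2 fold changes from 1 edgeR quasi-likelihood fit of the 9 libraries, with the standard error (SE) taken from its F statistic, and FDR is the Benjamini-Hochberg value over the 22672 genes with at least 10 counts in all, a filter that all 10 members passed. A gene was called past an FDR of 0.05 and a fold change of 1.5. Scaled by library totals without TMM, the median of all genes shifted from 0.000997 to -0.21 in hypoxia and from -0.01 to 0.17 with 32-134D, and the share of calls that were higher went from 49% to 34.5% and from 54.2% to 72%. The hepatocyte markers ALB, AFP, APOA1, APOB, TTR, SERPINA1, FGB and TF were all detected, with sums of 11360 to 19370 CPM. Of 8 markers of other cell types VWF was at 0 and KRT19 was at 363 CPM on average in vehicle at 20% O2. None of the 7 markers other than KRT19 exceeded 10.4 CPM in any library. In cultures measured in bulk, fewer cells with a transcript and less of it per cell cannot be told apart. Replicate 3 of 32-134D stood apart from replicates 1 and 2 (chi-square over degrees of freedom 40.5 and 36.2, against 2.08 for replicates 1 and 2). Values that rest on it are therefore given with and without it.

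The levels by library followed several patterns. JUN, JUND, FOSL2 and DUSP1 rose in hypoxia and fell with 32-134D. EGR1 and IER3 did the opposite. JUNB and FOSL1 were called only with 32-134D, and FOS and FOSB, the least abundant of the FOS family with FOSL1, were called in neither comparison.

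**Figure D1:**
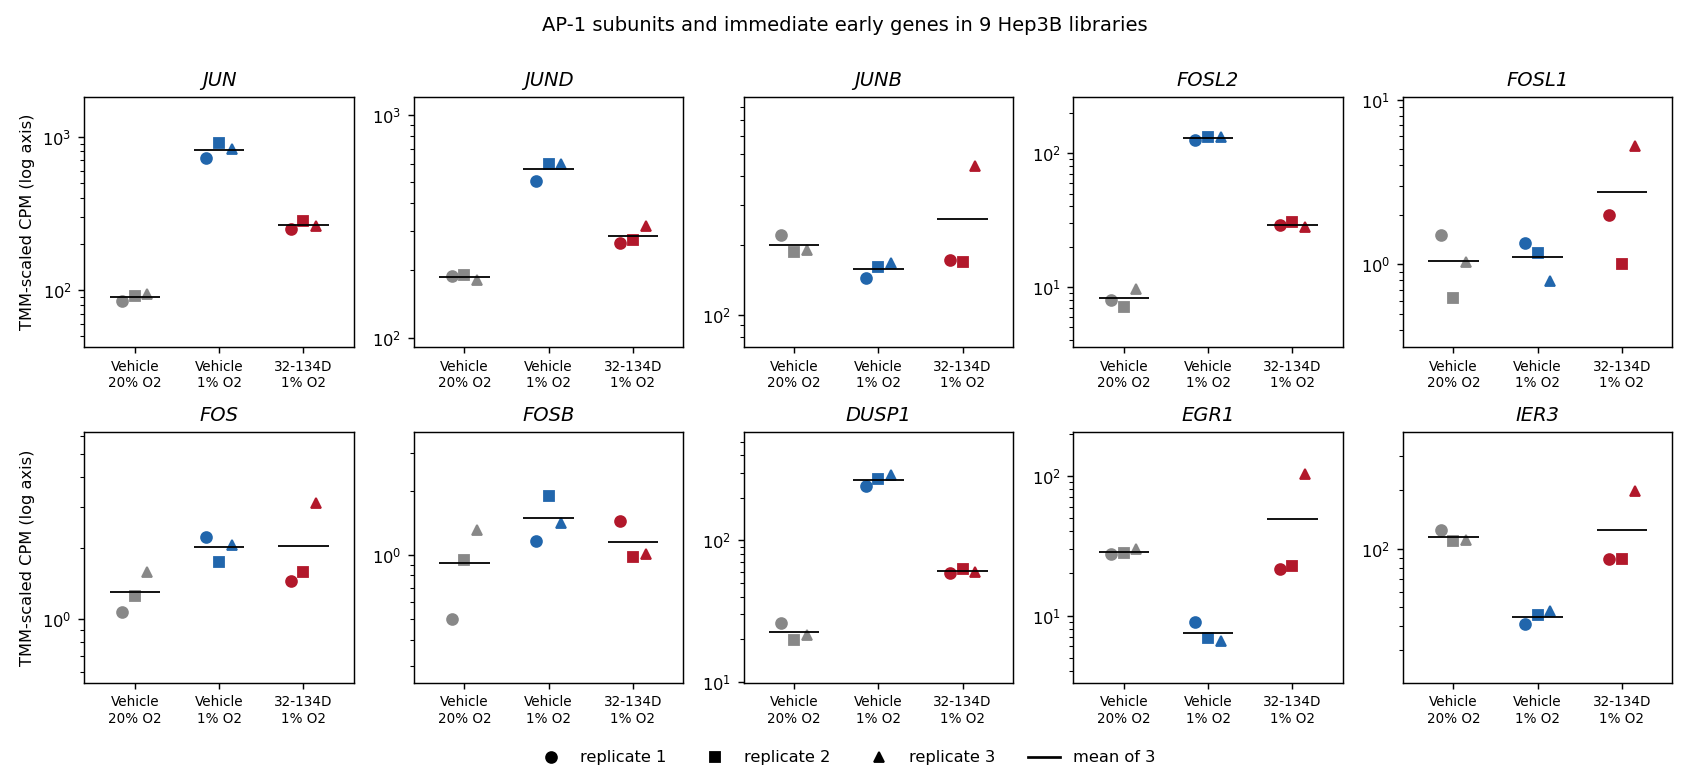
Each panel plots the TMM-scaled CPM (log axis) of 1 gene in the 9 libraries, by group and replicate, with a bar at the mean of 3. JUN, JUND, FOSL2 and DUSP1 sit highest in vehicle at 1% O2 with tight replicates, whereas in JUNB, FOSL1, FOS, EGR1 and IER3 the triangle of replicate 3 lies far above the other 32-134D libraries.

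To show what lies next to the starts of the members that changed most, the 250 bases before the RefSeq transcription start of JUN, JUND, FOSL2, DUSP1 and EGR1 are printed here 5′ to 3′ on the strand of the gene (RefSeq, GRCh38.p14). Capitals mark matches to the motifs that were searched on both strands: the AP-1 site TGAGTCA, the CRE TGACGTCA, the ATF/JUN element TTACCTCA, the HIF core ACGTG or GCGTG, the EGR site GCGGGGGCG or GCGTGGGCG, the CArG box of serum response factor, and TATAAA on the sense strand. JUN lies at chr1:58784048-58784297 (minus strand), JUND at chr19:18281623-18281872 (minus), FOSL2 at chr2:28392608-28392857 (plus), DUSP1 at chr5:172771196-172771445 (minus) and EGR1 at chr5:138465229-138465478 (plus). The JUN and FOSL2 windows fall inside the gene bounds given below, which are from GENCODE and begin further upstream than the RefSeq start. Under those bounds these windows are not upstream of the gene.
JUN: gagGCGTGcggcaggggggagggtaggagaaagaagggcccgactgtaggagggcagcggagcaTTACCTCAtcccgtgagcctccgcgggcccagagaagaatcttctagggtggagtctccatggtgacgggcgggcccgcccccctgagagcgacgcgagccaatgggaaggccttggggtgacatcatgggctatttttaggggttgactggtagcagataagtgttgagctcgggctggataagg
JUND: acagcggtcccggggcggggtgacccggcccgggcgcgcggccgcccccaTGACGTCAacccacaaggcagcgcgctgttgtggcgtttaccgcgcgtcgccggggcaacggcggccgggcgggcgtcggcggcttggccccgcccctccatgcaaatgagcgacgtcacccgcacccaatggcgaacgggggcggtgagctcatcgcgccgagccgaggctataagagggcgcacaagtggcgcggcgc
FOSL2: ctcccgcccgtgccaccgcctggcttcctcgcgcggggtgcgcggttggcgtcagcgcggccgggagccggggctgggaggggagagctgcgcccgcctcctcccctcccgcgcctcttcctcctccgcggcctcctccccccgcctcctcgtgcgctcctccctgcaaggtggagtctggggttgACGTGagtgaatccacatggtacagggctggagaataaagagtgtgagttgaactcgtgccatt
DUSP1: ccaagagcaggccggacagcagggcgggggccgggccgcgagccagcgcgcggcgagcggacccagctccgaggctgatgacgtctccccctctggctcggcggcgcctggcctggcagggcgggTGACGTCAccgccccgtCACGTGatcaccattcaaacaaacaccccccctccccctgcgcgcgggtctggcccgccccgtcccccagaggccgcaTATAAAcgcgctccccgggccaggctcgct
EGR1: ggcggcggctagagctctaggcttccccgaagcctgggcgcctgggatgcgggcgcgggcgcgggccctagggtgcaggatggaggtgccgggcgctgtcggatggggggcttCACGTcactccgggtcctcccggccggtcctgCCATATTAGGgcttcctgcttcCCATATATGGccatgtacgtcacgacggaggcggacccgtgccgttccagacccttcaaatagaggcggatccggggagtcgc

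Promoter entries were found for 8 of the 10 members, with FOSL1 and IER3 as the exceptions. JUN held TTACCTCA with its first base 186 bases before the start, an element present in 0.644% of the 35116 promoters searched at the same length. A CRE stood 200 bases before the start in JUND and 125 in DUSP1, against 1.65% of promoters. EGR1 held 2 CArG boxes, at 105 and 83 bases, a motif of 1.16% of promoters. The HIF core was found in 6 of the 8 members and in 43.2% of all promoters, and in DUSP1 it formed a palindrome that was matched on both strands at 108 and 107 bases. FOS, FOSB, JUNB and DUSP1 carried TATAAA at 30 to 33 bases, compared with 6.8% of promoters. None of the 8 held TGAGTCA, found in 4.2%, or the EGR site, found in 5.37%. Only the spellings listed above were searched, so variant sites were not marked. The JUN window, for example, holds TGACATCA, which is close to the CRE in sequence and was left in lower case. All distances are to the RefSeq start. The ends of the FOS and FOSB windows, and the whole JUN and FOSL2 windows, lie inside the GENCODE gene bounds. A match describes the letters in this window and does not show binding.

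JUN, the founding subunit of AP-1 (ENSG00000177606, a gene of 1 exon on chromosome 1, 58780788 to 58784327 in GRCh38), had 84.6, 90.9 and 94.0 CPM in replicates 1, 2 and 3 of vehicle at 20% O2. In vehicle at 1% O2 it had 719, 910 and 831 CPM, and with 32-134D 251, 282 and 260 CPM. The 3 groups did not overlap, and every 32-134D library lay between the vehicle groups. Hypoxia raised JUN 9.12-fold (log2 fold change 3.19, SE 0.10, FDR 4.57e-12 from edgeR). 32-134D lowered it 3.1-fold (-1.63, SE 0.09, FDR 4.69e-09), to a level 2.94-fold above vehicle at 20% O2 (FDR 1.11e-07). The 3 comparisons share libraries in pairs, so these values are not independent of each other.

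JUND, a JUN family subunit that is expressed constitutively in many cells (ENSG00000130522, chromosome 19, 18279760 to 18281622), had 190, 191 and 181 CPM in vehicle at 20% O2 and 504, 603 and 603 CPM in vehicle at 1% O2. Its 32-134D libraries had 267, 275 and 315 CPM. No 2 groups overlapped. JUND rose 3.05-fold in hypoxia (1.61, SE 0.09, FDR 1.62e-09) and fell 2-fold with 32-134D (FDR 3.55e-07). Against vehicle at 20% O2 it was 1.53-fold higher with 32-134D (FDR 0.000396), just past the fold threshold. It missed that threshold without replicate 3 of 32-134D (0.53), without replicate 3 of vehicle at 20% O2 (0.58) and with total library size (0.58).

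JUNB, which is a weaker activator than JUN and can oppose it (ENSG00000171223, chromosome 19, 12791496 to 12793315), had 222, 187 and 192 CPM in vehicle at 20% O2. Values in vehicle at 1% O2 were 144, 161 and 168 CPM. The groups did not overlap, but the difference did not pass, at -0.35 on the log2 scale (SE 0.27, FDR 0.293). Without replicate 3 of 32-134D, which shares the estimate of the spread, its FDR was 9.53e-05 at the same size, under the fold threshold. With 32-134D JUNB had 172, 169 and 443 CPM. Replicates 1 and 2 lay barely above the hypoxic vehicle, and replicate 3 was 2.59-fold above their mean. The call with 32-134D (0.73, SE 0.27, FDR 0.0352) therefore rests on that library: without it the log2 fold change was 0.12 with an FDR of 0.221. DESeq2 did not call it either (FDR 0.118). Exons of JUNB share 259 bases with those of HOOK2 on the opposite strand, and without a stated strand setting reads from the shared stretch cannot be assigned. HOOK2 itself had log2 fold changes of -1.44 in hypoxia and 1.00 with 32-134D.

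FOSL2, a FOS family subunit also called FRA2 (ENSG00000075426, chromosome 2, 28392448 to 28417312), showed the largest fold change of the 10 in hypoxia. It had 8.03, 7.07 and 9.64 CPM in vehicle at 20% O2, and 126, 133 and 132 CPM in vehicle at 1% O2. With 32-134D it had 28.9, 30.6 and 28.2 CPM. The SD was at most 3.44 CPM (n = 3) in any group, and the groups lay far apart. FOSL2 rose 15.2-fold in hypoxia (3.92, SE 0.10, FDR 1.67e-12) and fell 4.45-fold with 32-134D (-2.15, SE 0.09, FDR 3.52e-10). It remained 3.41-fold above vehicle at 20% O2 (FDR 9.65e-08), the largest such difference among the called members.

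FOSL1, or FRA1, a FOS family subunit whose gene is itself a target of AP-1 (ENSG00000175592, chromosome 11, 65892049 to 65900573), was low, with 372 counts in all 9 libraries. Values were 1.51, 0.628 and 1.03 CPM in vehicle at 20% O2, 1.35, 1.18 and 0.795 CPM in vehicle at 1% O2, and 1.99, 1.01 and 5.21 CPM with 32-134D. The groups overlapped in all 3 comparisons. In hypoxia the log2 fold change was 0.01 (SE 0.54, FDR 0.995). The call with 32-134D (1.24, SE 0.46, FDR 0.0368) was lost without replicate 3 (0.44, FDR 0.225). It also missed the FDR threshold with only the libraries of the compared groups fitted (FDR 0.0689) and without any 1 of 5 vehicle libraries (FDR 0.0508 to 0.107).

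FOS, the founding partner of JUN (ENSG00000170345, chromosome 14, 75278774 to 75282230), was scarce after 24 hours, with 422 counts in all. It had 1.08, 1.26 and 1.58 CPM in vehicle at 20% O2, 2.23, 1.74 and 2.07 CPM in vehicle at 1% O2, and 1.45, 1.58 and 3.11 CPM with 32-134D. The vehicle groups did not overlap, and the log2 fold change of 0.58 (SE 0.31, FDR 0.134) did not pass. Against hypoxic vehicle, 32-134D gave -0.03 (SE 0.27, FDR 0.952), and the sign turned under other scalings. FOSB (ENSG00000125740, chromosome 19, 45467995 to 45475179), a further FOS family subunit, had 0.502, 0.942 and 1.31 CPM in vehicle at 20% O2, 1.17, 1.89 and 1.42 CPM in vehicle at 1% O2 and 1.45, 0.976 and 1.01 CPM with 32-134D. All groups overlapped, with log2 fold changes of 0.56 (FDR 0.178) in hypoxia and -0.34 (FDR 0.392) with 32-134D. In hypoxia FOS stayed under the fold threshold without replicate 3 of 32-134D (0.56, FDR 0.0398), and FOSB was called without replicate 3 of vehicle at 20% O2 (1.15, FDR 0.0458).

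DUSP1, a dual-specificity phosphatase that switches off p38, JNK and ERK (ENSG00000120129, chromosome 5, 172768090 to 172771195), had 26.1, 19.6 and 21.5 CPM in vehicle at 20% O2. It reached 243, 272 and 293 CPM in vehicle at 1% O2, and had 59.2, 62.6 and 59.3 CPM with 32-134D. No library of one group came near another group. The rise in hypoxia was 11.9-fold (3.58, SE 0.11, FDR 4.54e-12), and the fall with 32-134D was 4.46-fold (-2.16, SE 0.10, FDR 7.03e-10). Above vehicle at 20% O2, 2.67-fold remained (FDR 6.04e-07).

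EGR1, a zinc finger transcription factor induced through serum response factor (ENSG00000120738, chromosome 5, 138465490 to 138469315), went the other way. It had 27.5, 28.0 and 29.9 CPM in vehicle at 20% O2 and 8.99, 6.88 and 6.60 CPM in vehicle at 1% O2, a 3.78-fold fall (-1.92, SE 0.48, FDR 0.00314). Without replicate 3 of 32-134D, which shares the estimate of the spread, the fall was of the same size (-1.92) with an FDR of 2.19e-15. With 32-134D EGR1 had 21.6, 22.8 and 103 CPM. All 3 lay above every hypoxic vehicle library, and replicate 3 was 4.64-fold above the mean of the other two. The rise with 32-134D was 6.44-fold (2.69, SE 0.47, FDR 0.000233), and 1.55 on the log2 scale without replicate 3, still called. Against vehicle at 20% O2 the difference of 0.77 was not called (FDR 0.307), and without replicate 3 it turned to -0.37 (FDR 0.0201), under the fold threshold.

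IER3, a short protein that modulates cell survival and ERK signaling (ENSG00000137331, chromosome 6, 30743199 to 30744554), followed EGR1. It had 125, 109 and 111 CPM in vehicle at 20% O2, 40.9, 45.5 and 47.6 CPM in vehicle at 1% O2, and 89.0, 88.2 and 199 CPM with 32-134D. Hypoxia lowered it 2.58-fold (-1.37, SE 0.24, FDR 0.000162), and 32-134D raised it 2.8-fold (1.49, SE 0.23, FDR 9.61e-05), or by 0.99 without replicate 3. Leaving out that library also changed the FDR of the fall in hypoxia, to 1.2e-15 at the same size (-1.37). The difference from vehicle at 20% O2 was 0.12 (FDR 0.811) with all libraries and -0.38 (FDR 0.00138) without replicate 3, where the fold threshold was not reached. Its exons share 359 bases with the antisense gene IER3-AS1, which had 346 counts in all against 20094 for IER3.

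In counts, hypoxia raised 4 of the 10 members, beside 19.5% of all genes tested, and lowered 2, beside 20.3%. With 32-134D, 4 members were lower, beside 13.7% of all genes, and 4 were higher, beside 16.2%. The higher count was 2 without replicate 3 of 32-134D, EGR1 and IER3, beside 16.7% of all genes in that fit and so near that share. It was also 2 without replicate 2 or 3 of vehicle at 20% O2, without replicate 1 or 2 of vehicle at 1% O2, and in a fit of only the compared groups. Against vehicle at 20% O2, 32-134D left 4 members higher, beside 3% of all genes, and 0 lower, beside 0.516%. With all libraries edgeR gave no member a log2 fold change below 0 in that comparison, and DESeq2 called none lower. Without replicate 3 of 32-134D, JUNB, EGR1 and IER3 were at -0.23, -0.37 and -0.38, none of them called. In that fit 3 members were higher, beside 2.81% of all genes. The median log2 fold change of the 10 was 0.57 in hypoxia, -0.18 with 32-134D against hypoxic vehicle and 0.69 against vehicle at 20% O2, beside medians within 0.0116 of 0 for all genes. Without replicate 3 of 32-134D the medians of the 10 were 0.53, -0.34 and 0.36.

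**Figure D2:**
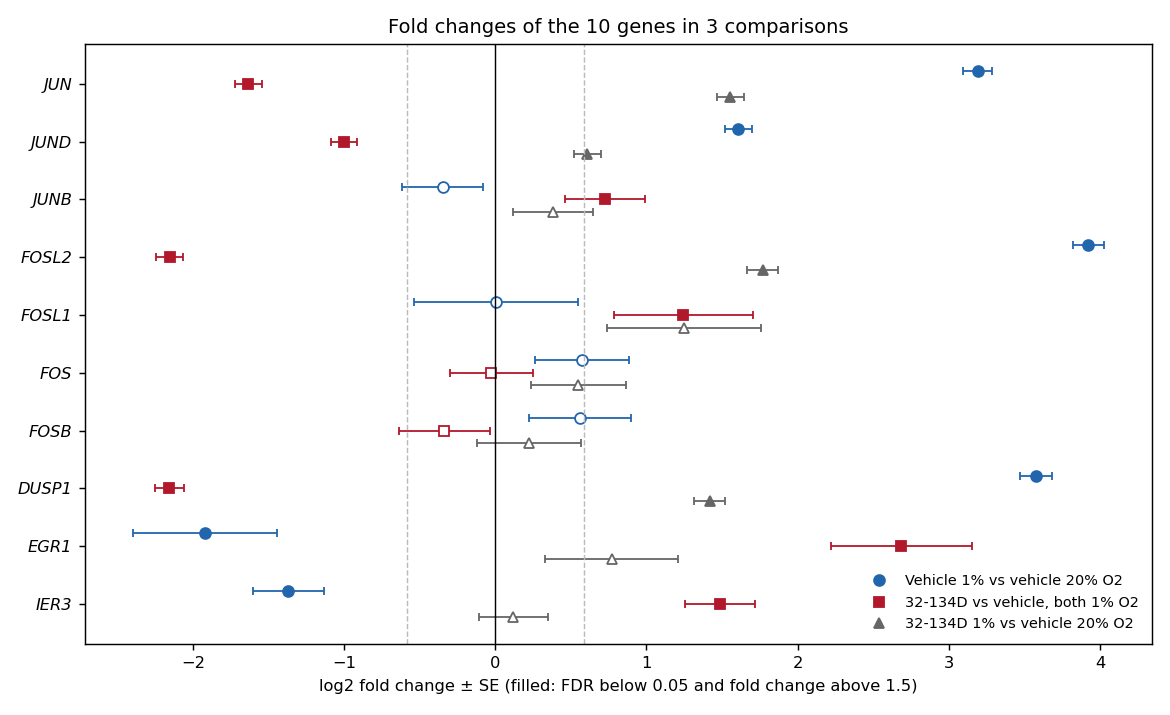
Log2 fold changes of the 10 genes (points) with SE (bars) for vehicle at 1% against 20% O2 (circles), 32-134D against vehicle at 1% O2 (squares) and 32-134D at 1% O2 against vehicle at 20% O2 (triangles), filled where the gene passed both thresholds. Dashed lines mark the 1.5-fold limits. JUN, JUND, FOSL2 and DUSP1 lie to the right in hypoxia and to the left with 32-134D, and EGR1 and IER3 lie on the opposite sides with wider bars. The bars in hypoxia also draw on the spread of the 32-134D libraries, replicate 3 among them.

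**Figure D3:**
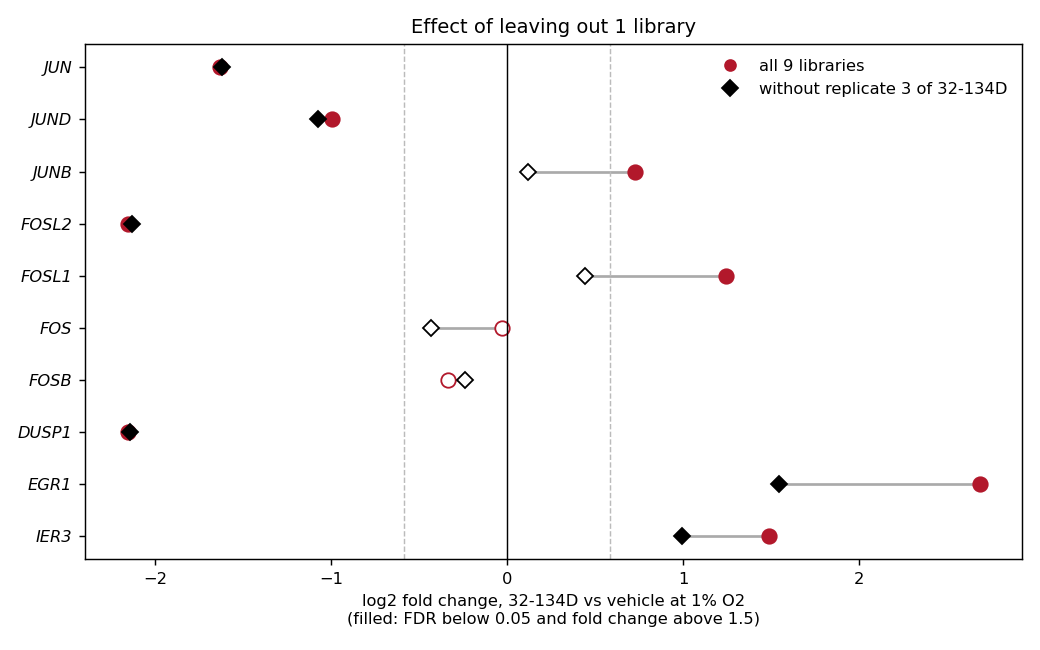
Log2 fold changes of 32-134D against vehicle at 1% O2 from all 9 libraries (circles) and without replicate 3 of 32-134D (diamonds), filled where both thresholds were passed; dashed lines mark the 1.5-fold limits. JUN, JUND, FOSL2 and DUSP1 barely move, JUNB and FOSL1 lose their calls at 0.12 and 0.44, and EGR1 and IER3 keep theirs at 1.55 and 0.99.

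Replicate 3 of 32-134D was over 2-fold above the mean of replicates 1 and 2 in EGR1, FOSL1, JUNB, IER3 and FOS, with ratios of 4.64, 3.48, 2.59, 2.25 and 2.05. Among the 13911 genes with a mean of at least 1 CPM, 1.36% were. In JUN, FOSL2, DUSP1 and JUND the ratio was 0.978, 0.949, 0.974 and 1.16, and in FOSB 0.83. Liver markers were low in the same library. TTR had 9.79 CPM there against 37.9 and 34.5, FGB 6.86 against 33.5 and 33.1, TF 584 against 1545 and 1505, and AFP 86.0 against 204 and 194. Of the 8 hepatocyte markers 2 fell in hypoxia, and 1 rose and 3 fell with 32-134D, of which none was called lower without this library. Their sums were 17980 to 19370 CPM in vehicle at 20% O2, 13060 to 16400 in vehicle at 1% O2 and 11360 to 17740 with 32-134D. In hypoxia 6 of the 8 were not called, ALB among them (9284 CPM in vehicle at 20% O2 and 9536 at 1% O2). The 2 that fell were APOB, 11.1-fold from 4487 to 405.5 CPM, and AFP, 1.61-fold. APOB was also the 1 that rose with 32-134D, 8.68-fold to 3520 CPM. The lower sum in hypoxia thus does not stand for a fall of the whole list. Of the 5 markers of other cell types with at least 10 counts in all, 3 fell in hypoxia, and 3 rose and 1 fell with 32-134D. Without this library 2 rose and 0 fell, KRT19 (-0.51) and COL1A1 (0.56) having lost their calls. The part of this library's state in the rise of EGR1, IER3 and JUNB was not tested beyond leaving it out.

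To compare levels between genes, CPM was divided by the summed exon length in kilobases. In vehicle at 20% O2 the order was JUNB (110 CPM per kilobase), JUND (100.5), IER3 (84.9), JUN (25.4), DUSP1 (11.1), EGR1 (9.07), FOSL2 (1.15), FOSL1 (0.560), FOS (0.403) and FOSB (0.165). Only FOSL1 and FOS overlapped among neighbors in that order. In vehicle at 1% O2 the order became JUND (306 CPM per kilobase), JUN (232), DUSP1 (133), JUNB (86.6), IER3 (32.9), FOSL2 (18.2), EGR1 (2.39), FOS (0.622), FOSL1 (0.588) and FOSB (0.268), and again only FOS and FOSL1 overlapped. With 32-134D the order was JUND (153 CPM per kilobase), JUNB (144), IER3 (92.5), JUN (74.6), DUSP1 (29.9), EGR1 (15.7), FOSL2 (4.09), FOSL1 (1.45), FOS (0.632) and FOSB (0.206). There the ranges overlapped between neighbors from JUND through JUN, between DUSP1 and EGR1, and between FOSL1 and FOS. Replicates 1 and 2 alone gave means of 93.9 for JUNB, 75.2 for JUN, 65.4 for IER3 and 7.07 for EGR1, with JUN above IER3. With all 9 libraries the ranks were the same with the longest transcript as the length.

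Within the JUN family, the make-up of the transcripts changed. JUN supplied 10.8% ± 1.02 (SD, n = 3) of the family's CPM per kilobase in vehicle at 20% O2, 37.1% ± 1.19 in vehicle at 1% O2 and 21.0% ± 5.15 with 32-134D. JUNB went the other way, from 46.6% ± 2.41 to 13.9% ± 0.606 and then 36.6% ± 11.7, with 50.0% in replicate 3 of 32-134D. JUND went from 42.6% ± 1.64 to 49.0% ± 0.683 and then 42.4% ± 6.58, with 34.8% in replicate 3 of 32-134D. In the FOS family FOSL2 supplied 50.6% ± 2.44 in vehicle at 20% O2, 92.5% ± 0.849 in vehicle at 1% O2 and 66.0% ± 14.3 with 32-134D. Replicates 1 and 2 of 32-134D alone averaged 23.9% JUN, 29.9% JUNB, 46.2% JUND and 73.9% FOSL2. For JUN, JUNB, JUND and FOSL2 the vehicle groups did not overlap, and neither did 32-134D and hypoxic vehicle. The exact permutation test of each (two-sided, 3 against 3) gave p = 0.1, the smallest it can give. These are shares of RNA, not of protein.

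The summed level of the JUN family was 236 ± 10.2, 624 ± 62.3 and 372 ± 99.2 CPM per kilobase in vehicle at 20% O2, vehicle at 1% O2 and 32-134D (SD, n = 3). Replicates 1 and 2 of 32-134D alone averaged 314 for the JUN family and 5.64 for the FOS family. With all libraries the FOS family stood at 2.28 ± 0.375, 19.7 ± 0.393 and 6.37 ± 1.29 in the same order. FOS family transcripts were thus 0.958%, 3.07% and 1.71% of the summed level of both families, and JUN family transcripts were the bulk in every library.

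**Figure D4:**
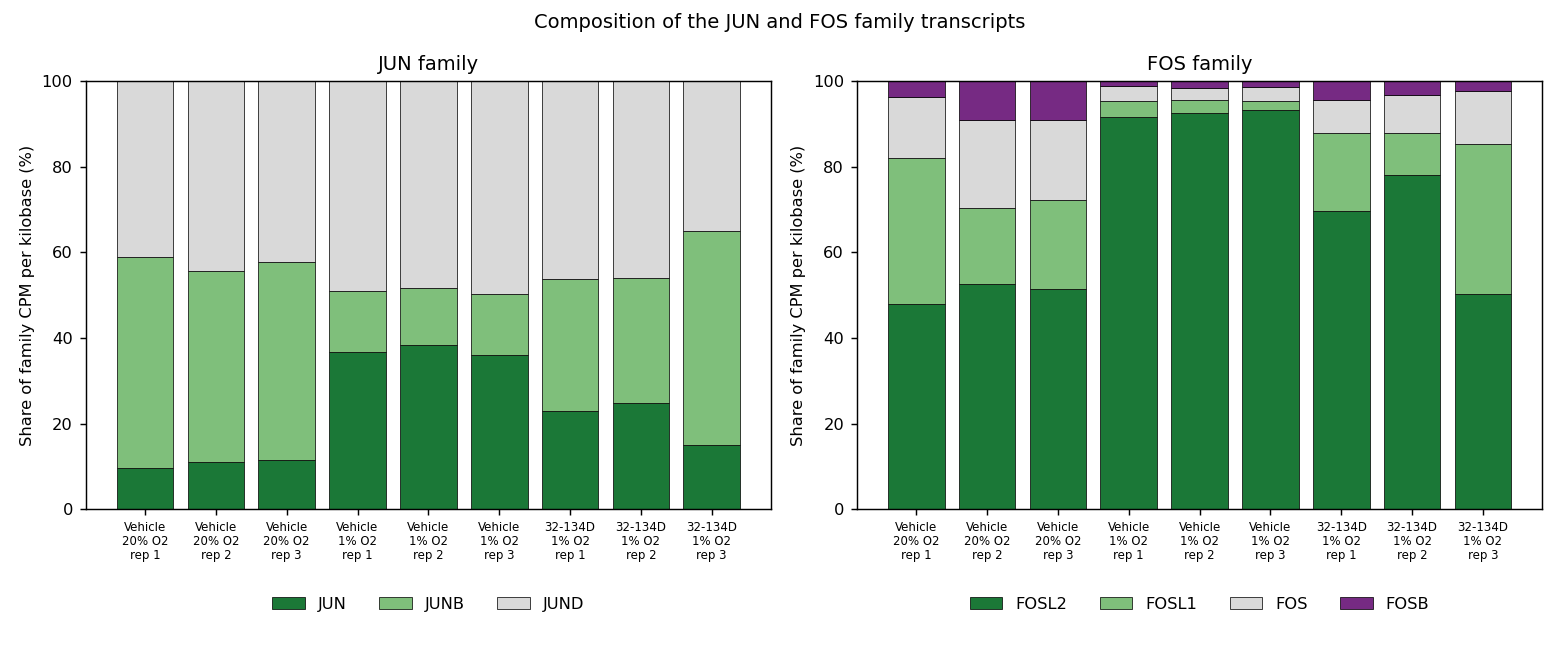
Stacked bars give the share (%) of each gene in the summed CPM per kilobase of the JUN family (left) and the FOS family (right) in each of the 9 libraries. JUN and FOSL2 are largest in vehicle at 1% O2 (37.1% and 92.5% on average), and replicate 3 of 32-134D has more JUNB and FOSL1 than replicates 1 and 2.

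Other genes of the pathway were followed as lists, whose counts stand beside 19.5% higher and 20.3% lower of all genes in hypoxia, and 16.2% and 13.7% with 32-134D. Of 9 detected AP-1 partners and relatives, 6 rose in hypoxia and 0 fell, with a median log2 fold change of 0.98, and 0 rose and 4 fell with 32-134D, with a median of -0.49. ATF3, a stress-induced partner of JUN, rose from 8.94 ± 1.01 to 208 ± 18.5 CPM (SD, n = 3) in hypoxia (4.51, FDR 9.55e-13). With 32-134D it was 90.4 ± 1.88 CPM, 2.31-fold below hypoxic vehicle and 9.85-fold above vehicle at 20% O2 (FDR 8.32e-11). The small MAF proteins MAFK and MAFF, which have a leucine zipper but no activation domain, rose by 2.14 and 2.06 in hypoxia. MAFK fell by 1.52 with 32-134D, and JDP2, a repressive partner of JUN, fell by 1.09. MAFF was lower as well (-0.85, FDR 0.000929), at -1.18 without replicate 3 of 32-134D.

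Of 25 detected immediate early genes outside the members, 20 rose in hypoxia and 1 fell, with a median log2 fold change of 1.83. With 32-134D 17 fell and 0 rose, with a median of -0.85, and without replicate 3 of 32-134D 18 fell and 1, CCN2, rose. Against vehicle at 20% O2, 14 were higher and 0 lower, beside 3% and 0.516% of all genes. KLF4, a zinc finger factor, rose 17.6-fold, from 1.12 ± 0.159 to 18.6 ± 1.55 CPM (SD, n = 3), and was 5.10 ± 0.278 CPM with 32-134D. CSRNP1, a nuclear protein induced by AXIN1, rose 15.1-fold and fell 3.2-fold with 32-134D. GADD45A, a growth arrest and DNA damage gene, rose 10.8-fold and fell 3.48-fold. The gene that fell in hypoxia was CCN2, the matricellular connective tissue growth factor, by 1.10 (FDR 0.00122). Its log2 fold change without replicate 3 of 32-134D was -1.105 (FDR 3.87e-12).

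In the MAP kinase chain 4 of 22 genes rose in hypoxia and 1 fell, and the share that rose was near the 19.5% of all genes. MAP2K1, which encodes the ERK kinase MEK1, rose 3.79-fold to 238 ± 10.7 CPM (SD, n = 3) and fell 2.31-fold with 32-134D. MAP2K7, a JNK kinase, rose by 0.88 and HRAS by 0.87. MAP2K6, a p38 kinase, fell by 1.88 in hypoxia and rose by 1.43 with 32-134D. With 32-134D 1 gene of the chain rose and 3 fell. The SRF list held 7 genes, which were SRF, its cofactors and, apart from these, CREB1. In it ELK1, SRF and CREB1 rose by 0.87, 0.86 and 0.83 in hypoxia, and MRTFB, a coactivator of SRF, fell by 0.65. With 32-134D MRTFB rose by 0.61, and CREB1 and ELK1 fell by 0.63 and 0.61, calls that DESeq2 did not make for the genes that fell.

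Of 15 detected phosphatases and brakes on ERK outside the members, 7 rose and 1 fell in hypoxia, and 2 rose and 7 fell with 32-134D. Without replicate 3 of 32-134D the hypoxia counts were 8 and 2, with SPRY4 called lower (-1.28, FDR 5.12e-10) and SPRED3 higher (0.66, FDR 0.034). DUSP10 and DUSP8, phosphatases of JNK and p38, rose 9.74-fold and 3.41-fold in hypoxia and fell 3.38-fold and 2.28-fold with 32-134D. DUSP5, a nuclear ERK phosphatase, rose 4.38-fold in hypoxia. The ERK phosphatase DUSP6 fell 1.65-fold in hypoxia, from 48.2 ± 2.52 to 29.3 ± 1.37 CPM (SD, n = 3), and rose 1.51-fold with 32-134D. SPRY4, an inhibitor of receptor tyrosine kinase signaling, rose 5.29-fold with 32-134D (FDR 0.00101), but by 1.16 on the log2 scale without replicate 3.

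The AP-1 target list was split. Of its 13 detected genes 4 rose and 4 fell in hypoxia, with a median log2 fold change of 0.07, near the 0.000997 of all genes. VIM (vimentin) rose 2.27-fold and HMOX1 (heme oxygenase 1) 2.08-fold. CCND1 (cyclin D1) fell 3.27-fold, from 108 ± 4.48 to 32.9 ± 1.16 CPM (SD, n = 3), and SPHK1 and CXCL8 fell 2.72-fold and 2.4-fold. With 32-134D 5 rose and 3 fell, VIM and HMOX1 among the latter, and CCND1 rose 2.56-fold and CXCL8 1.97-fold. Without replicate 3 of 32-134D, 3 rose, PLAU and LIF having lost their calls (0.55 and 0.36), and the median went from 0.29 to -0.07.

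**Figure D5:**
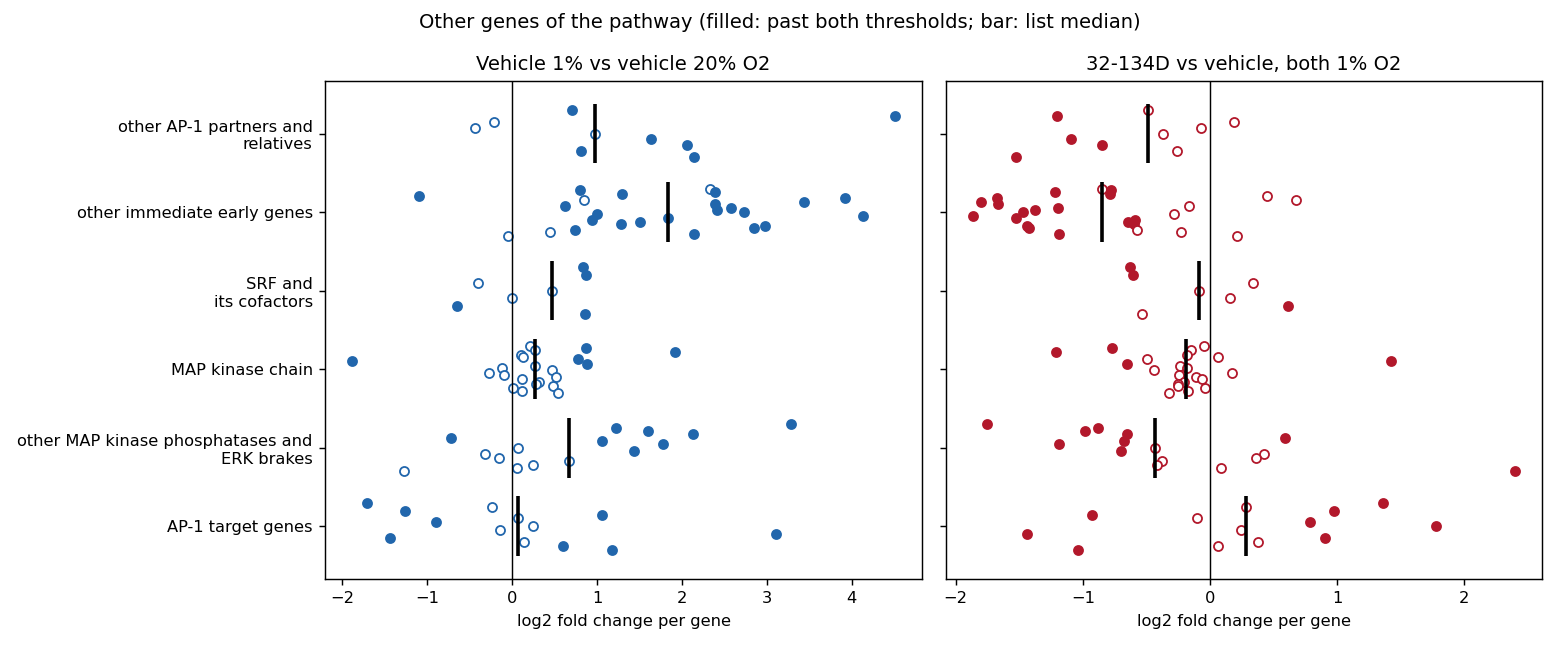
Each point is the log2 fold change of 1 detected gene in 6 lists, in hypoxia (left) and with 32-134D against vehicle at 1% O2 (right), filled where both thresholds were passed, with a bar at the list median. The other immediate early genes lie mostly to the right in hypoxia (median 1.83) and to the left with 32-134D (median -0.85), and AP-1 targets lie on both sides.

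The genes whose log2 CPM followed JUN most closely over the 9 libraries were PTPRH (Pearson r 0.998), KLF10 (0.998) and RYBP (0.997), among 13901 genes with a mean of at least 1 CPM. For FOS they were DSG2 (0.988), WDR36 (0.970) and CEP170 (0.966). Among the members, r with JUN was 0.996 for FOSL2, 0.990 for DUSP1 and 0.984 for JUND, and EGR1 and IER3 gave 0.971 with each other. The 9 points are 3 groups of 3, so these values describe mostly the group means, and for FOS they rest on few counts.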

How the data were processed

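RNA-seq libraries of 9 Hep3B cultures were analysed. Per the methods, the authors checked reads with FastQC, trimmed them with Bbduk, mapped them with STAR to GRCh38 with Ensembl release 100, and counted them per gene with featureCounts. The deposited values are raw counts, without normalization. Tool versions and the strand setting are not given in the sources used here. The study's text gives a micromolar dose of 32-134D, and the labels give none. All 9 count columns matched a sample title, and 0 were left unmapped.

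Counts were tested with edgeR 4.0.16 in R 4.3.3 (TMM, quasi-likelihood test, genes with at least 10 counts in all) in 1 fit of the 3 groups. Groups followed the treatment labels. DESeq2 1.42.0, other scalings, filters and fold thresholds, fits of only the compared groups, each library left out in turn, and a replicate block were the alternatives. The members and lists were chosen with earlier results of these data known. Named list genes are the 3 with the largest change in each direction past both thresholds, provided that libraries of the groups did not overlap and the group with more transcript averaged 100 or more normalized counts; any others, and the genes named for replicate 3, were picked after their values were seen. A gene that this rule names is not reported here. Genes most like FOS and JUN had the 3 highest Pearson r of log2 CPM (prior count 2). Positions and exon lengths came from GENCODE release 29 on GRCh38, and promoter sequences from RefSeq on GRCh38.p14. In simulated counts of 22112 genes for the hypoxia comparison, 80% of genes changed by 1 on the log2 scale and 99% of those changed by 2 were recovered, with 1.1% of calls false. For the 32-134D comparison (22138 genes) these were 86%, 100% and 8.82%. Each simulation changed 100 genes by 1 and 100 by 2, as many up as down, with no deviating library. In the data far more genes were called (19.5% higher and 20.3% lower in hypoxia). The rates therefore hold for the simulated setting and not for these comparisons. Permutation tests used scipy 1.17.1. Precision is limited by 3 replicates and, for FOS, FOSB and FOSL1, by low counts, at totals of 6013980 to 40549699 per library.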

Additional observations from a re-analysis of the deposited data

How the results depend on the processing

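The counts of members called higher and lower in hypoxia, lower with 32-134D, and higher and lower with 32-134D than at 20% O2 stayed within 1.5 times under every alternative run. The count of members higher with 32-134D, 4, was 2 in the fit of only the compared groups, ranged from 2 to 4 with each library left out, and was 2 with both replicate 2 of vehicle at 20% O2 and replicate 3 of 32-134D left out, an alternative chosen after seeing the data, as were the levels and shares without replicate 3. With both left out, 16.7% of all genes were higher with 32-134D. The cause was not tested, except that leaving out replicate 3 removes its high values of JUNB and FOSL1.

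Of the log2 fold changes of members, 451 kept direction and side of the threshold, 20 became weaker, 5 stronger and 25 reversed, none of the reversals in a called value. FOS with 32-134D (-0.03) was 0.053 with DESeq2, 0.034 with median-ratio scaling, 0.16 with total library size and 0.043 with only the compared groups, and -0.43 to 0.24 with each library left out. FOSL1 in hypoxia (0.01) was -0.024, -0.039 and -0.20 with DESeq2, median-ratio scaling and total library size, -0.19 to 0.21 with each library left out, and -0.10 with both left out. Between 32-134D and vehicle at 20% O2, the range with each library left out was -0.054 to 0.81 for FOSB, -0.23 to 0.61 for JUNB, -0.37 to 1.13 for EGR1 and -0.38 to 0.32 for IER3. With both libraries left out JUNB, EGR1 and IER3 were -0.28, -0.38 and -0.41. Without a filter on low counts, EGR1 (0.79) and FOSL1 (1.27) were called in that comparison.

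With the replicate number as a replicate block, the members higher and lower were 4 and 2 in hypoxia and 4 and 4 with 32-134D, and no call of a member changed. Same-numbered libraries did not deviate together (correlations of -0.0322 to 0.00525 over 9 pairs), which gave no sign of pairing. Taken over all genes tested, such correlations could miss a shared culture or batch, so the check cannot exclude pairing. DESeq2 called 0 rather than 2 of the SRF list and 1 rather than 3 of the hepatocyte markers lower with 32-134D. With the longest transcript as the length, levels per kilobase moved by more than 1 SD for FOS and FOSB (0.604 and 0.243 in vehicle at 20% O2), and for FOSL2 at 1% O2 (19.4 with vehicle, 4.36 with 32-134D). Depth limits FOS, FOSB and FOSL1, which had 283 to 422 counts in all.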

Other observations

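In replicate 3 of 32-134D, genes of other lists were high together with EGR1, FOSL1 and JUNB, and they were picked here after their values were seen. SPRY4 had 71.1 CPM there against 13.4 and 13.9 in replicates 1 and 2, PLAU (urokinase) 21.5 against 4.08 and 4.11, and EGR2, a relative of EGR1, 1.46 against 0.199 and 0.236. CCN2 was low in the same library, at 34.8 CPM against 85.9 and 85.4, and was higher with 32-134D than in hypoxic vehicle without it (0.76, FDR 4.89e-08 from edgeR). Of 13911 genes with a mean of at least 1 CPM, 189 were over 2-fold higher and 421 were under 0.5 of the mean of the other libraries of the group. What sets this library apart was not tested.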
